A study of Mus musculus with 8 samples.

Results

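The genes of the RUNX transcription factors Runx1, Runx2 and Runx3 and of their shared partner Cbfb were examined for changes in H3K27ac, a histone acetylation found at promoters and enhancers that are in use. A region was taken as lying at a gene when it overlapped the gene, when the gene had the nearest protein-coding start, or when the centre of the region lay within 500 kb of one of its starts. By this rule, 77 of the 11180 differential regions lay at the 4 genes. The genes were chosen by the positions and directions of these regions, so their counts and directions are given as a description, and no test was applied to them.

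CUT&RUN, which releases and sequences the DNA around an antibody bound to its target in chromatin, was carried out on primary mouse myotubes, the fused muscle cells formed by cultured satellite cells. The labels give 4 groups of 2 libraries, from Nrip1KO and Ctrl myotubes, each with an antibody against H3K27ac or with IgG. All cells came from gastrocnemius muscle and had been differentiated for 4 days. Nrip1 encodes RIP140, a coregulator of nuclear receptors. Per the study's methods, the mice with loxP sites around the coding exon of Nrip1 were C57BL/6J. For the knockout they were crossed to C57BL/6JN mice with Cre recombinase under the muscle creatine kinase promoter, which acts in striated muscle. Controls were littermates that lacked Cre. That promoter is active in differentiated muscle, and the nuclei had been pooled before they were divided between antibodies. When and how far Nrip1 was lost in these KO cultures is unknown here. The methods give an age range and both sexes for the mouse studies in general, but not the age or sex of the animals behind these cultures. The authors' lists hold the positions of regions that differed by their fold threshold, 7263 decreased and 3917 increased in KO myotubes. Because they hold no value per library, neither effect sizes and replicate error nor depth and IgG background can be given. A difference in DNA copy number or depth between the cultures cannot be told apart from a difference in the mark.

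RUNX proteins bind DNA through the Runt domain, and CBFB, which does not bind DNA itself, raises the affinity of that binding. Each Runx gene is read from a distal and a proximal promoter that give proteins with different first residues. RUNX1 is required for the formation of blood stem cells and is induced in denervated muscle, RUNX2 directs the differentiation of bone-forming cells, and RUNX3 acts in T cells and sensory neurons.

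The sequences below show where the RUNX consensus occurs in the regions that lie inside the Runx genes. They are plus-strand stretches of 150 bases of GRCm38.p6, the assembly to which mm10 corresponds, and capitals mark TGTGGT or TGCGGT on either strand. The stretch of the widest Runx1 region lies at chr16:92623885-92624034. Those of the first and second regions met downstream of the distal start lie in an intron at chr16:92812966-92813115 and chr16:92800759-92800908. The Runx2 stretch at chr17:44730448-44730597 comes from the increased region nearest to its proximal start, and the Runx3 stretch at chr4:135171890-135172039 from the only region inside that gene.
Runx1 widest region: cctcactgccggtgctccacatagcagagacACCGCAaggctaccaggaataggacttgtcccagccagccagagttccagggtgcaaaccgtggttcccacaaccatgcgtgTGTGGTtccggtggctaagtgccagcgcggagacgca
Runx1 first region inside the distal start: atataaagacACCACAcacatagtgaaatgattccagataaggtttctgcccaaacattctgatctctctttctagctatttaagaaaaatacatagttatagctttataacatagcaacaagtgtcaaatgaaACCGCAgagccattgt
Runx1 second region inside the distal start: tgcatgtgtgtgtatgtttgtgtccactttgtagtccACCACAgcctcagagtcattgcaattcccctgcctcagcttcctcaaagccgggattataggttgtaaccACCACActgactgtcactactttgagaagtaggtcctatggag
Runx2 increased region: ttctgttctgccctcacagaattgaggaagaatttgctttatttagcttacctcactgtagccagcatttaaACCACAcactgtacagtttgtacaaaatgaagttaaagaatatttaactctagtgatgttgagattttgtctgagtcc
Runx3 region: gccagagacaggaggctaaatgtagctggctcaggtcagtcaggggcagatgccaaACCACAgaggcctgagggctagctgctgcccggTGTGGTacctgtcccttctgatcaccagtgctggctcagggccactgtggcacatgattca
These stretches hold 2 of 37, 2 of 4, 2 of 3, 1 of 3 and 2 of 3 RUNX matches of their regions, in the order printed. Each was placed where matches were densest, so the spacing within it describes that stretch alone.

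At Runx1, all 28 differential regions were decreased in KO myotubes (95% Wilson interval for the share, 87.9 to 100, counting error over regions only), and they covered 68226 bp. Neighbouring regions are not independent, so the intervals for shares here and below are no test against the chromosome. Over both lists, 65.0% of regions were decreased, and on chromosome 16, which carries Runx1, the share was 92.2% (780 of 846 regions). The share at Runx1 stood 7.8 percentage points above that of its chromosome and 35.0 above that of the lists as a whole. In these bulk cultures, fewer cells with the mark and less of it per cell cannot be told apart. Of the 28 regions, 8 lay inside the gene and 18 had Runx1 as their nearest protein-coding start. Without chromosomes 4, 7, 10 and 16, 69.8% of regions were decreased.

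Runx1 (ENSMUSG00000022952.17) occupies chromosome 16 from 92601466 to 92826149 on the minus strand, with its proximal promoter at 92697328, 128821 bp downstream of the distal promoter at 92826149. The decreased regions were spread unevenly between these landmarks. From the proximal promoter to the end of the gene, decreased regions covered 39746 bp, or 41.5% of the segment. Between the promoters, 6 regions covered 6553 bp, or 5.09%. In the 500 kb upstream of the distal promoter, 12 regions covered 2.65%, and in the 100 kb beyond the end of the gene, 3 regions covered 3.52%. The covered share was highest in the 3' part of the gene, which both promoters transcribe.

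**Figure D1:**
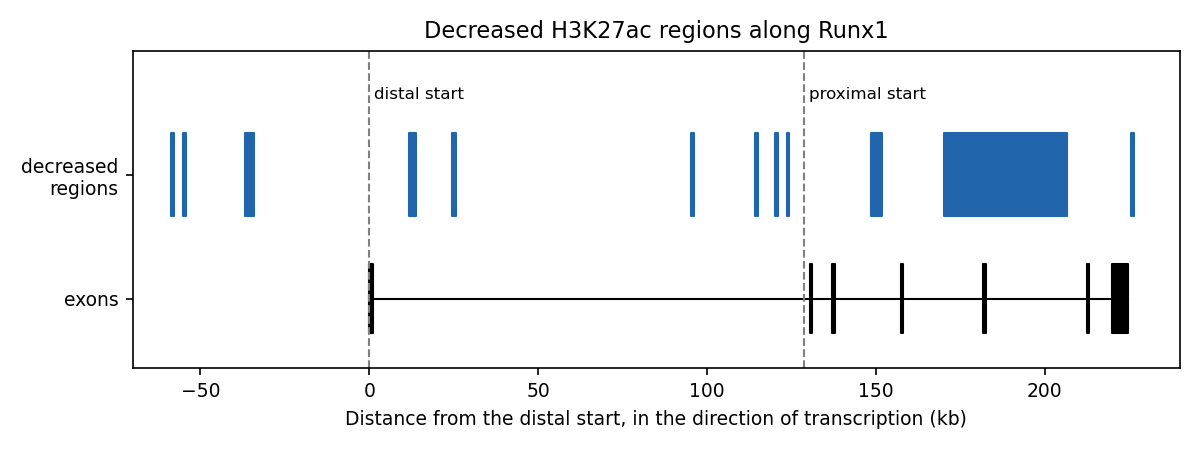
Decreased regions (blue) and exons of the longest transcript (black) of Runx1, by distance in kb from the distal start in the direction of transcription, with dashed lines at the distal and proximal starts. Narrow features are drawn at a minimum visible width. The widest block, of 36470 bp, lies downstream of the proximal start, and neither start is covered.

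Most of this coverage came from a single region. It spanned 92619478 to 92655947, a width of 36470 bp. As read from the number in its name, it had been joined from 10 called peaks, the most of any region in either list. It began 41381 bp downstream of the proximal start and ended 18012 bp before the end of the gene, and it held 78.8% of the decreased bases in the gene. Exon 6 of 8, which is coding, lay wholly within it, together with 81.2% of intron 6 and 47.6% of intron 5. An annotated gene, Gm26626 (ENSMUSG00000097139.3), overlaps it as well, so the mark in this interval cannot be assigned to Runx1 alone. The region was 1.83 times as wide as the next widest decreased region and 42.3 times as wide as the median decreased region (863 bp). Without it, decreased regions covered 9829 bp of Runx1 in place of 46299 bp. Each interval was counted whole, and a joined interval does not show that every base in it differed.

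The remaining 7 regions inside the gene were narrower, from 626 to 3276 bp. The closest to a promoter lay 4646 bp upstream of the proximal start (92701974 to 92702599, 626 bp), followed by regions at 92705020 to 92706105 and 92711087 to 92711866 in the same intron. A gap of 69444 bp without a differential region separated the group near the proximal promoter from the 2 regions within the distal end of intron 2. The first of those, of 2082 bp, began 11859 bp downstream of the distal start. Upstream of the distal start, the nearest region lay 34071 bp away and a cluster of 3 regions was followed by a gap of 170631 bp. No differential region had its centre within 1 kb, or within 2.5 kb, of either Runx1 promoter, nor did any edge reach within 1 kb of one.

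**Figure D2:**
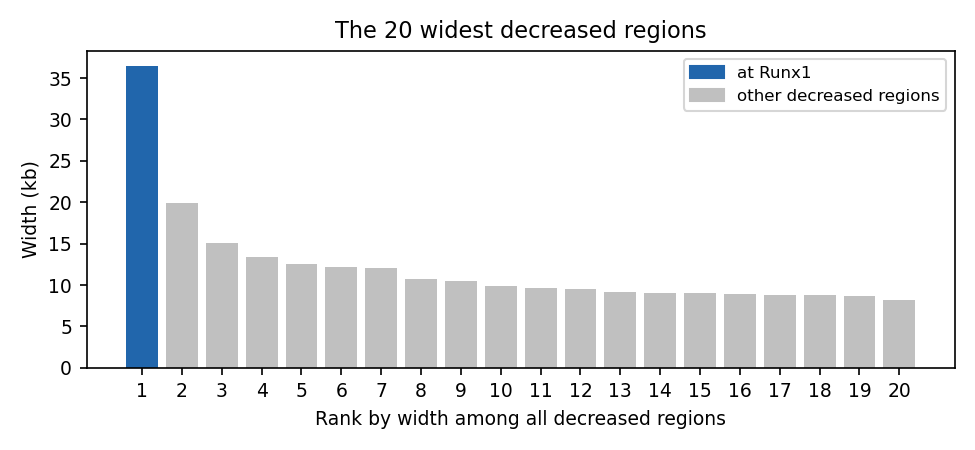
Width in kb of the 20 widest decreased regions, by rank. The Runx1 region (blue) ranks 1 at 36.5 kb, and the next widest measures 19.9 kb. A region within 500 kb of Runx3, not coloured apart, ranks 4 at 13.3 kb.

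Compared with all protein-coding genes, Runx1 ranked 2 of 21938 by the number of nearest decreased regions and 1 by the bases they covered (56713 bp). The stretch of chromosome to which Runx1 is the nearest start measured 608 kb, and decreased regions occurred there at 29.6 per Mb against 7.94 per Mb over chromosome 16. Within 500 kb of its starts, 28 decreased regions compared with a median of 10.5 for genes of that chromosome, and 57 of 664 genes, Runx1 included, had at least as many. Runx1 lay in an unbroken run of 62 decreased regions over 3.59 Mb, which ranked 3 by length among 53 runs on the chromosome, and the nearest increased region was 1259192 bp from the gene. The genes most like Runx1, with no nearest increased region and the largest covered length, were 2900026A02Rik (15 regions, 42650 bp), Lpp (25 regions, 34525 bp), Gse1 (16 regions, 33097 bp), Arhgef10l (14 regions, 29005 bp) and Gm826 (17 regions, 28769 bp). The widest single region of any of these 5 genes measured 8811 bp.

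Runx2 was the only one of the 4 genes with increased regions. Runx2 (ENSMUSG00000039153.16, chromosome 17 from 44495987 to 44814797, minus strand) had 5 increased and 5 decreased regions, so that 50% were decreased (95% Wilson interval, 23.7 to 76.3) against 78.8% of the regions on chromosome 17. Inside the gene, 3 regions were increased and 1 was decreased. The increased region closest to a promoter (44729355 to 44731247, 1893 bp) lay 5401 bp downstream of the proximal start at 44736648, and 1 of its 3 RUNX matches is printed above. Another, at 44770665 to 44771562, lay between the promoters, 43235 bp downstream of the distal start at 44814797. It was nearer to a start of Supt3, which overlaps the 5' part of Runx2 on the annotation. The remaining one, of 636 bp, lay in the body at 44577442 to 44578077. The decreased region inside the gene (44617635 to 44618828, 1194 bp) lay between these, and 3 of the other 4 decreased regions had Cdc5l as their nearest start, with centres 355433 bp or more upstream of Runx2. Around Runx2, increased regions occurred at 6.83 per Mb, compared with 0.926 per Mb over chromosome 17, and decreased regions at 3.41 per Mb, compared with 3.44 per Mb.

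**Figure D3:**
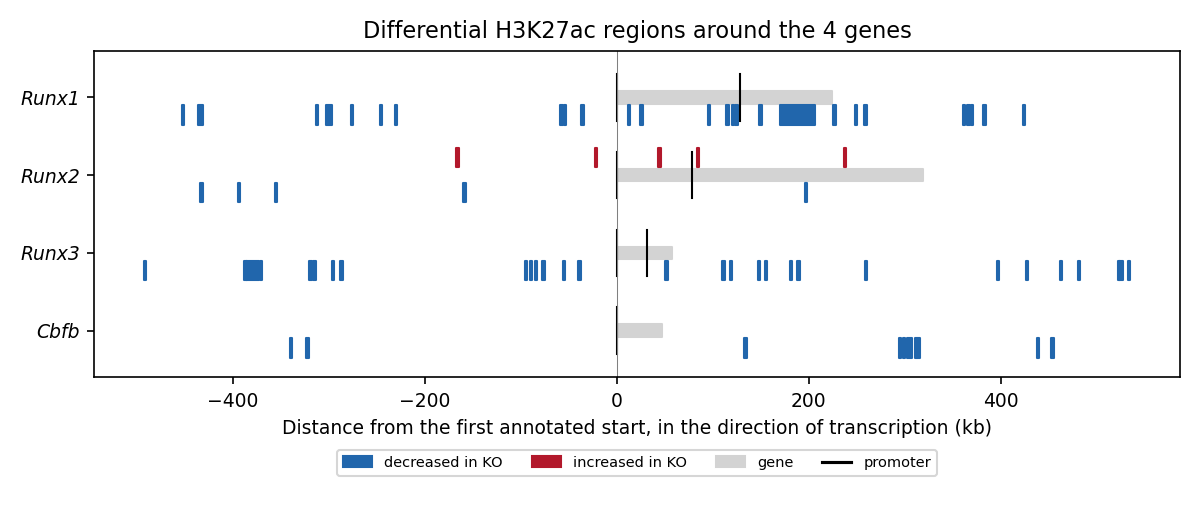
Differential regions around the 4 genes by distance in kb from the first annotated start of each gene, in the direction of transcription. Blue marks below each line are decreased and red marks above it increased regions, grey bars are genes and black ticks promoters. All 5 increased regions lie at Runx2.

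At Runx3 the decreased regions lay mostly outside the gene. Runx3 (ENSMUSG00000070691.10, chromosome 4 from 135120652 to 135177990, plus strand) had 29 regions, all decreased (95% Wilson interval, 88.3 to 100), on a chromosome where 92.5% of regions were decreased. Of these, 1 lay inside the gene, at 135171537 to 135172418 (882 bp), 19041 bp downstream of the proximal start at 135152496. A group of 5 regions of 501 to 1892 bp lay upstream, the nearest of them 39399 bp from the distal start at 135120652. These 6 regions had Runx3 as their nearest start and gave 31.9 decreased regions per Mb of its 188 kb, compared with 5.18 per Mb over chromosome 4. Within 500 kb, 29 of 1327 genes of that chromosome had at least as many decreased regions as Runx3, itself included.

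The other 23 regions near Runx3 were nearest to other genes. The widest of them measured 13344 bp and ranked 4 by width among the 7263 decreased regions. Of 14 neighbouring protein-coding genes within 500 kb, 9 had a nearest region, and all of those regions were decreased. Among them, Maco1 and Clic4 had 4 each, Grhl3 had 3, Srrm1 had 2, and Man1c1, Syf2, Ncmap and Stpg1 had 1 each. Ifnlr1, named because it was nearest to the outermost 3 regions, has its starts beyond this window.

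Cbfb carried no differential region. Cbfb (ENSMUSG00000031885.14, chromosome 8 from 105170674 to 105217989, plus strand) held none inside the gene and was the nearest start of none, though its nearest-start stretch measured only 47.1 kb. The 10 regions within 500 kb were all decreased (95% Wilson interval, 72.2 to 100) against 75.3% of the regions on chromosome 8. The closest lay 133032 bp downstream of the start, over Elmo3 and E2f4. Of its 34 neighbouring genes, 7 had a nearest region, namely Tppp3 with 3, Zdhhc1 with 2, and Ces2b, Ces2c, Elmo3, Ripor1 and Ctcf with 1 each. Tppp3 is a tubulin-binding protein and Ctcf an insulator protein that shapes chromatin loops.

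**Figure D4:**
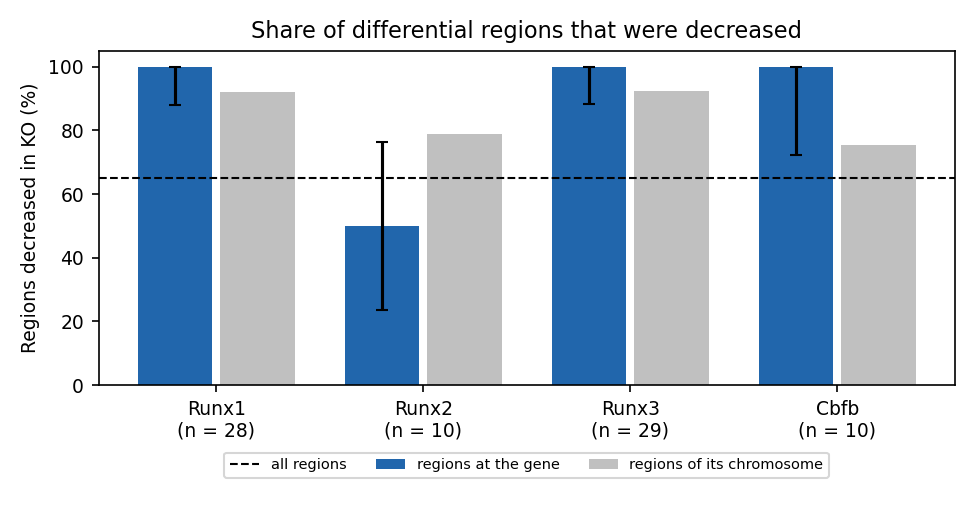
Percent of differential regions that were decreased at each gene (blue, with 95% Wilson intervals over regions) and on its chromosome (grey), with all regions as a dashed line. The intervals treat regions as independent, which neighbouring regions are not, and are no test against the grey bars. Runx1, Runx3 and Cbfb stand at 100% and Runx2 at 50%.

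The share of regions close to the start of any protein-coding gene differed among the 4 genes. The number of neighbouring genes within 500 kb differed as well, with 6 for Runx1, 2 for Runx2, 14 for Runx3 and 34 for Cbfb. Over both lists, 9.86% of regions had their centre within 1 kb of a protein-coding start. This held for 1 of 28 regions at Runx1 (3.57%, at Rcan1), 0 of 10 at Runx2, 1 of 29 at Runx3 (3.45%) and 5 of 10 at Cbfb (50%, at Ces2b, Elmo3, Tppp3 and Zdhhc1). None of the 7 promoters of the 4 genes themselves had a region within 1 kb. Rcan1, a regulator of calcineurin, had 5 of the decreased regions near Runx1 and Clic6, a chloride channel protein, had 2, while Kcne1, Kcne2, Smim11 and Fam243 had none. The outermost 3 regions upstream of Runx1 were nearest to Setd4.

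The 500 kb limit cut through a run of regions at Runx1 and Runx3. The last region inside it at Runx1 had its centre 451832 bp from a start and the first outside 502928 bp, and at Runx3 these distances were 499140 and 503527 bp. For Runx2 they were 433084 and 662183 bp, and for Cbfb 452028 and 635496 bp. The first region outside was decreased at Runx1, Runx2 and Runx3 and increased at Cbfb.

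Base composition of the regions was compared with the lists as a whole. GC content averaged 47.6% ± 3.52 (SD over 28 regions) at Runx1, 50.3% ± 4.31 (29 regions) at Runx3 and 51.1% ± 4.13 (10 regions) at Cbfb, compared with 48.0% ± 5.28 over all decreased regions. The 5 increased regions at Runx2 averaged 39.3% ± 3.23 and its 5 decreased regions 47.2% ± 3.65. All 5 increased regions, from 35.0% to 42.6%, lay just below the lowest decreased region at that gene, 42.7%. Some of those decreased regions had Cdc5l as their nearest start, as given above. Over both lists, increased regions averaged 43.5% ± 5.56 and ranged from 24.9% to 71.3%. Decreased regions ranged from 30.7% to 77.6%, so the directions overlapped widely in the lists as a whole.

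The RUNX consensus (TGTGGT or TGCGGT, both strands) was present in the central 500 bp of 38.9% of all regions and 39.7% of decreased regions. At Runx1 it was present in 12 of 28 regions (42.9%), at Runx3 in 10 of 29 (34.5%), at Cbfb in 3 of 10, and at Runx2 in 3 of 5 decreased and 2 of 5 increased regions. These shares lie near the background. Within the Runx1 gene, the widest region held 37 matches, or 1.01 per kb, against 0.916 per kb in the other 7 regions and 1.15 per kb in the rest of the gene. None of the 37 lay in its central 500 bp, so it counts as a region without the consensus above. Counted in steps of 2000 bp along that region, matches ranged from 0 to 5. The E-box CAGCTG, bound by MyoD and related muscle factors, was present in 28.6% of the regions at Runx1, 55.2% of those at Runx3 and 34.7% of all regions. AP-1 (TGACTCA or TGAGTCA) was present in 10.7% at Runx1, 24.1% at Runx3 and 14.1% overall. The GATA consensus AGATAA was present in 12 of 28 regions at Runx1 (42.9%), 31.0% of those at Runx3 and 24.3% of all regions. By density over whole regions, GATA stood at 0.572 per kb at Runx1 and 0.441 at Runx3, against 0.571 over all regions. The ETS consensus CCGGAA was present in the central 500 bp of 0 of 28 at Runx1, 10.3% at Runx3 and 5.69% overall. Over whole regions it was present in 1 of 28 at Runx1, the widest region, with 3 matches. The whole-region shares were 20.7% at Runx3 and 11.6% over all regions. Over all decreased regions the shares in the central 500 bp were 37.9% for the E-box, 12.8% for AP-1, 22.4% for GATA and 5.48% for ETS. A match describes letters and does not show binding, and a list of regions at 1 gene shares its surroundings.

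Other genes of the RUNX pathway were then located in the lists. Of 94 genes other than the 4 described above, 34 (36.2%) were nearest to a decreased region and 9 (9.57%) to an increased one, 5 of them to both, and 56 to neither. Over all protein-coding genes these shares were 17.8% and 10.6%. Counting any region in the gene or within 100 kb of a start, 52 of the 94 genes (55.3%) had a decreased and 21 (22.3%) an increased region, compared with 43.0% and 24.5% of all protein-coding genes. Among corepressors and coactivators, 17 of 25 genes had a decreased and 8 an increased region by gene body or 100 kb. By nearest start, 12 had a decreased and 4 an increased region. Tle3, a Groucho corepressor that RUNX proteins recruit, had 10 decreased and 1 increased, Cdk6 had 4 and 1, and Hdac4 had 4 decreased.

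Factors that bind with RUNX proteins had a decreased nearest region in 7 of 26 genes and an increased one in 1. Smad3, which carries TGF-beta signals, had 8 decreased regions covering 13592 bp, Ets1 had 3 and Fos 2. Sox9, the cartilage factor, was the nearest start of 6 increased regions and no decreased one, but none of the 6 lay in the gene or within 100 kb of its start. Among skeletal targets of RUNX2, 5 of 15 genes had decreased regions, namely Vegfa with 5, of which 1 lay within 100 kb, and Alpl, Col1a1, Fgfr3 and Sp7 with 1 each, and Col1a2 had 1 increased region. Among blood and immune targets, Zbtb7b alone of 14 genes was nearest to a region, which was decreased, whereas 8 had a decreased and 2 an increased region in the gene or within 100 kb. Growth control targets had a decreased nearest region in 7 of 11 genes and an increased one in 3. Socs1, on chromosome 16 like Runx1, was nearest to 5 decreased regions, the widest of 15129 bp. By gene body or 100 kb, 5 of these 11 genes had a decreased and 4 an increased region. Counted that way, the numbers were 13 and 2 for the 26 factors that bind with RUNX, and 7 and 4 for the 15 skeletal targets. Over all protein-coding genes the shares by gene body or 100 kb were 43.0% and 24.5%. Myc was the nearest start of 10 decreased and 4 increased regions, of which 0 decreased and 1 increased lay in the gene or within 100 kb. Of the complex itself, Cbfa2t2 had 1 and Cbfa2t3 had 2 decreased regions, and Runx1t1 had none.

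**Figure D5:**
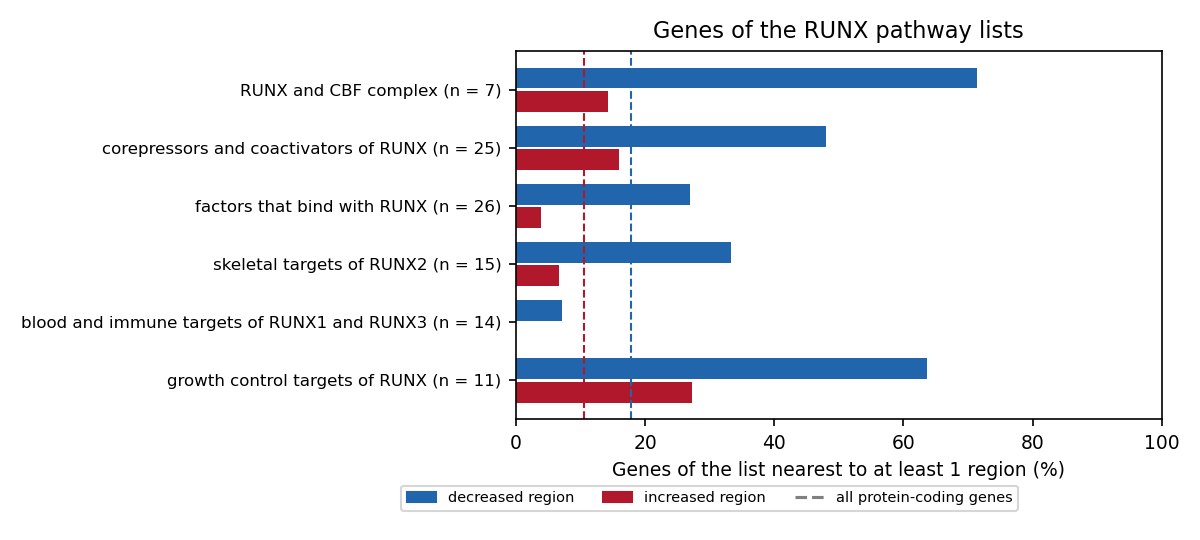
Percent of the genes in each RUNX pathway list that were nearest to at least 1 decreased (blue) or increased (red) region, with dashed lines at the shares over all protein-coding genes (17.8% and 10.6%). The complex list includes the 4 genes described above, and its decreased share is 71.4% of 7 genes, while the blood and immune list stands at 7.14% of 14 genes.

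Markers of the cell types a culture could hold were read in the same way, since the lists give no level of the mark and so cannot show which cells were present. A decreased nearest region was found for 3 of 20 myotube, 5 of 10 myoblast and satellite cell, 3 of 10 fibroblast, 2 of 8 bone and cartilage, 0 of 8 blood and 2 of 5 endothelial markers. An increased one was found for 3, 1, 5, 2, 0 and 1 of them. Over all protein-coding genes the shares were 17.8% and 10.6%, as above. By gene body or 100 kb, the decreased counts in the same order were 11, 8, 3, 4, 3 and 2. The increased counts were 9, 3, 4, 2, 3 and 1. Over all protein-coding genes the shares by gene body or 100 kb were 43.0% and 24.5%. The part of a shift in cell composition in the regions at the Runx genes was not tested.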

How the data were processed

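CUT&RUN libraries (8, in 4 groups of 2) were made with H3K27ac or IgG antibodies. The labels and the study's methods name different suppliers for the H3K27ac antibody. Per the submitters' processing notes, BWA 2.2.1, HOMER 4.11 and build mm10 were used. How replicates and IgG entered the calls is not given in the sources used here. The deposited lists hold interval positions, a name, a strand and a constant score, which carries no ranking. The number that ends each name was read as the count of peaks joined, a meaning that the sources used here do not state. Positions are given counted from 1. All 11179 regions on standard chromosomes lay within GRCm38.p6, and 1 region lay on another sequence. Genes came from GENCODE M21 (21938 protein-coding). Each region was assigned by overlap, by the start nearest to its centre, and by a 500 kb window. GC content and motifs (whole matches, both strands, central 500 bp) were read with pysam 0.24.0. Intervals on shares are 95% Wilson intervals (scipy 1.17.1) and cover counting error only. They treat regions as independent, which neighbouring regions are not. Of the list genes, Ctgf was not matched by symbol. Assignment and motif counting were tested on simulated data. The genes, the pathway and marker lists and the rule for named genes were chosen with earlier results of these data known. By that rule the text names the 4 genes, neighbours within 500 kb that have a nearest region, up to 4 genes per list and the 5 genes most like Runx1. Genes named beyond it (Setd4, Cdc5l, Ifnlr1, Kcne1, Kcne2, Smim11, Fam243, E2f4, Gm26626 and further list genes) were chosen after their values were seen. Some genes that the rule would name are not reported here.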

Additional observations from a re-analysis of the deposited data

How the results depend on the processing

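No paired analysis was possible because the lists hold no value per library, and leaving out a replicate could not be run for the same reason. Of 122 alternative values, 72 stayed close to the reported one and 50 moved. The cause was not tested where the setting itself does not show it. Most of these values are counts or shares, which have no sign that could change. The 500 kb window alone gave the reported counts, and the other ways of assigning regions lowered them by construction: inside the gene, 8 regions remained for Runx1, 4 for Runx2, 1 for Runx3 and 0 for Cbfb, and by nearest start 18, 6, 6 and 0. With a 250 kb window, Runx3 had 14 and Cbfb 1 region, and with 1000 kb Runx1 had 48, Runx2 23, Runx3 48 and Cbfb 17. With starts of all annotated genes, Runx1 was nearest to 7, Runx2 to 2 and Runx3 to 1 region. With regions within 10 kb joined, Runx3 had 17 and Cbfb 6. Among regions at least 1000 bp wide, Runx1 had 15 at the gene, 9 nearest and 5 inside, Runx2 had 4, 3 and 2, and Runx3 had 9, 1 and 0. Against their own chromosome in place of all regions, the excess of decreased regions was 7.8 points at Runx1 and 7.53 at Runx3. Promoter-proximal regions numbered 4 at Runx1 and 2 at Runx3 within 2.5 kb, 0 at Runx1, Runx3 and Cbfb within 0.1 kb, and 2 at Runx1 by any base within 1 kb. Over the whole region the RUNX consensus was present in 64.3% at Runx1 and 70.0% at Cbfb (60.4% of all decreased regions). In the central 500 bp, TGTGGTT was present in 10.7% at Runx1 and 10.3% at Runx3 (13.4% of all decreased regions). At Runx2, with both directions counted, it was present there in 20.0% (13.6% of all regions). Over the whole region, TGTGGTT was present in 28.6% at Runx1 and 17.2% at Runx3 (25.3% of all decreased regions). Between the promoters alone, 6553 bp of Runx1 were covered, and without the widest region, an alternative chosen after seeing the data, 9829 bp. By gene body or 100 kb, 52 of 94 pathway genes had a decreased and 21 an increased region (43.0% and 24.5% of all protein-coding genes). Depth per library is unknown, so no limit of detection can be given.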
